A study of Mus musculus and Homo sapiens with 12 samples.

Results

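WNT ligands, their receptors and the feedback genes of the pathway were followed across liver tumours of 2 pancreatic ductal carcinoma models. Members were chosen by gene symbol alone: WNT, FZD, LGR4 to LGR6, DKK, SFRP and RSPO family genes together with RNF43, ZNRF3, AXIN1, AXIN2, LRP5, LRP6, TCF7, TCF7L1, TCF7L2, LEF1, NKD1, NKD2, CTNNB1 and APC. This gave 58 members among 28079 gene symbols, of which 45 had a row in the tables of both models and 13 in the KPC table alone. The 13 were Rspo1 to Rspo4, Dkk2, Dkk4, Fzd10, Sfrp2, Wnt1, Wnt3a, Wnt7a, Wnt8a and Wnt9b. The mouse model used KPC cells and KPC LM2, a derivative taken through the liver to its 2nd generation. The human model used the established cell line PANC1 and PANC1 LM3, a derivative of the 3rd generation. Each of the 4 groups held 3 biological replicates, all labelled as wild type. For every group 500,000 cells had been placed in the spleen on day 1, and tumours of the liver were taken on day 21 for RNA sequencing. The labels give neither the strain, age nor immune status of the hosts, nor whether a derived line was a clone or a pool. They name cells in the titles and tumours in the protocols, so what was lysed is not settled.

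In the canonical WNT pathway a secreted WNT protein binds a Frizzled (FZD) receptor and the co-receptor LRP5 or LRP6, which halts the complex of AXIN, APC and kinases that marks beta-catenin for degradation. Beta-catenin then enters the nucleus and works with the TCF and LEF proteins on target genes. Several targets are brakes on the pathway: AXIN2 rebuilds the degradation complex, NKD proteins act on Dishevelled, and the ubiquitin ligases RNF43 and ZNRF3 remove Frizzled receptors from the cell surface. R-spondins (RSPO), bound to LGR4, LGR5 or LGR6, clear these 2 ligases and so raise the response to WNT. In pancreatic ductal carcinoma the pathway is known for RNF43 loss, which leaves cells dependent on WNT ligands.

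The data came as 1 comparison per model, made by the authors with a Wald test, and no value per sample was available for these members. Each gene has a level, meaning the authors' mean normalised count over the 6 samples of its model, not corrected for length, a log2 fold change with its standard error (SE, given after ±), and an adjusted p. A gene was called where this adjusted p was under 0.05. The numerator of the fold change is not named, so signs are given as listed and assigned to neither the parental nor the selected line, and signs of the 2 models cannot be set against each other directly. How deeply each sample was sequenced is unknown, and the levels of all genes added up to 9106250 in KPC and 15415400 in PANC1. Where levels of the 2 sides are given, they are worked out from the mean and the fold change on the assumption that both groups of 3 weigh equally, and they carry no error of their own. In bulk samples, fewer cells of a type and less RNA per cell cannot be told apart.

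Between KPC and KPC LM2 samples, the ubiquitin ligase gene Rnf43, its regulator Lgr4, the receptors Fzd6 and Fzd1, the ligands Wnt7b and Wnt10a, beta-catenin itself and Tcf7 were positive, while the R-spondins Rspo2 and Rspo3 and the receptor Fzd4 were negative. Rnf43 had the largest Wald statistic of the members, at 2.05 ± 0.30 on the log2 scale. Of 58 members in the KPC table, 52 had an adjusted p; 8 were called positive and 3 negative, and 41 were not called. No adjusted p was listed for Dkk4, Rspo1, Rspo4, Wnt1, Wnt6 and Wnt8a. Members were thus called in 21.2% of cases, against 10.4% of all 20050 tested genes (5.77% positive and 4.60% negative). The median log2 fold change of the tested members was -0.83, against -0.08 for all tested genes. Among the 19 members with a level of 64 or more, 7 were called, all positive, against 12.7% of genes at that level. Most calls among all genes at that level were positive too, with 10.6% of tested genes positive and 2.11% negative.

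Level and sign were tied in the KPC table, and this touches every low member. All genes with a level under 16 had a median log2 fold change of -1.45, and those at 64 or more had 0.22. Of the 32 members under 16, 30 were listed as negative and Wnt10a and Fzd9 as positive. After a running median over level was subtracted, 13 of the 26 tested members under 16 lay above 0 and 13 below. With that subtraction 5 members were called positive and 3 negative, and after recentring on genes at 64 or more, a shift of 0.22, the counts were 6 and 8. The plot of fold change against level shows Rnf43, Wnt10a and Fzd6 well above the running median, and Rspo2 nearer to it than its listed value is to 0.

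**Figure D1:**
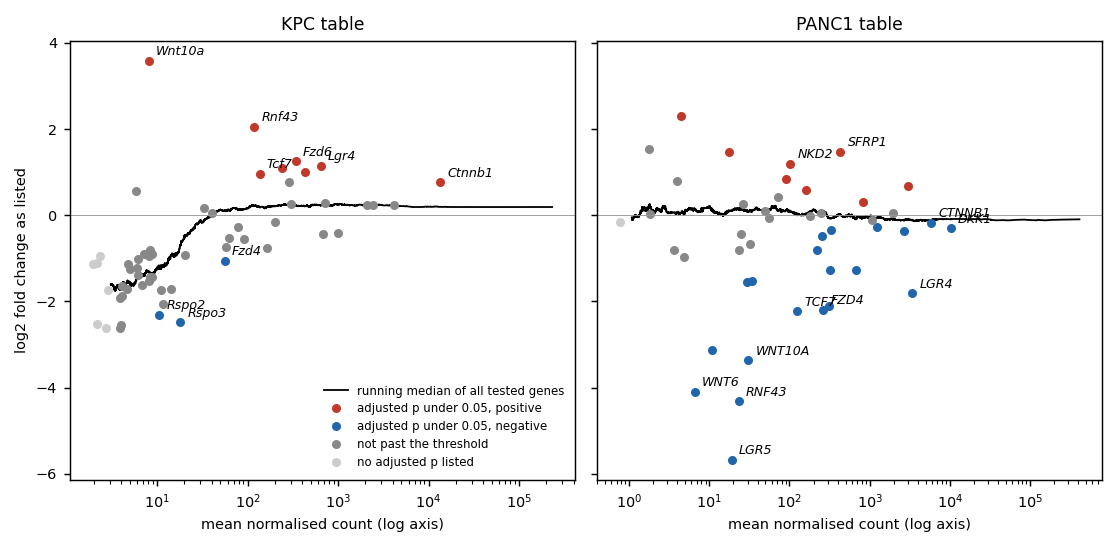
Log2 fold change as listed (vertical axis) against mean normalised count (horizontal axis, log scale) for the members in the KPC and PANC1 tables, 1 point a gene. The black line is the running median of all tested genes, which lies near -1.45 for low genes and near 0.22 for well-expressed genes in KPC and near 0 in PANC1.

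The R-spondin receptors and the ligases they control held the KPC member with the largest Wald statistic. Rnf43 had a level of 118 and a log2 fold change of 2.05 ± 0.30 (Wald test adjusted p = 3.15e-09) in the authors' deposited table, equal to about 191 on the numerator side and 46.0 on the other. Its paralog Znrf3, which encodes a ligase of the same function, stood at 0.26 ± 0.20 and was not called (95% interval -0.13 to 0.66) in the authors' deposited table. Lgr4, the broadly expressed R-spondin receptor, was at 1.14 ± 0.34 (Wald test adjusted p = 0.0136) with a level of 643 in the authors' deposited table. Recentring took its adjusted p to 0.054 and subtraction of the level trend to 0.088, so the call of Lgr4 rests on the scaling. Lgr6 at 0.78 ± 0.32 and the stem cell receptor gene Lgr5 at 0.16 ± 0.43 were not called (Wald test adjusted p of 0.0923 and 0.824) in the authors' deposited table. For Lgr5 the level was only 33.1 and the sign turned on recentring, to -0.06.

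The R-spondin ligand genes were low and lay on the other side of the table. Rspo3 was listed at -2.48 ± 0.62 (Wald test adjusted p = 0.0026) with a level of 18.1, and Rspo2 at -2.31 ± 0.76 (Wald test adjusted p = 0.0302) with 10.5, in the authors' deposited table. Neither stayed called after the level trend was subtracted, with adjusted p-values of 0.068 for Rspo3 and 0.52 for Rspo2. Both stayed called on recentring, with adjusted p-values of 0.00082 for Rspo3 and 0.016 for Rspo2. Rspo1 and Rspo4 had levels of 2.17 and 2.71 and no adjusted p in the authors' deposited table. In liver, R-spondins and some WNT ligands are known products of endothelial and stellate cells, so markers of these cells are given here. All 10 endothelial markers of a list written down for this purpose had a row, none was called and 9 were negative. Of the 10, 5 had a level under 16, where 89.7% of all genes were negative, against 58.6% of all genes at 16 to 64. Kdr and Vwf were called on recentring (adjusted p of 0.038 and 0.033) but not after subtraction of the trend (0.25 and 0.13). The median level of the 10 was 16.4. Their mean normalised counts summed to 172, or about 118 on the numerator side and 226 on the other. Among 10 stellate and fibroblast markers, 9 were negative and Col1a1 was called at -1.84 ± 0.63 in the authors' deposited table; their sums were about 96.2 and 204. Among 10 leukocyte markers, 8 were negative and Adgre1 was called, at -2.88 ± 0.75 in the authors' deposited table. The leukocyte sums were about 592 on the numerator side and 561 on the other, with Cd14 alone at a level of 471. Neither Col1a1 nor Adgre1 stayed called after the level trend was subtracted, with adjusted p-values of 0.26 and 0.14. Hepatocyte markers had 0 of 8 called, and albumin, their defining gene, had a level of only 10.4. Recentring also called the stellate marker Rgs5, the leukocyte marker Ptprc and the hepatocyte marker Glul (adjusted p of 0.030, 0.039 and 0.045). None of these was called after subtraction of the trend (0.56, 0.24 and 0.057). The part of these cells in the R-spondin values was not tested.

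Promoter sequence is shown for Rnf43 and Lgr4, 2 of the 6 members called in both models, as a gene and its regulator with a stretch outside annotated exons. Bases come from RefSeq on GRCm38.p6, which is another build than the mm39 named by the submitters, and run 5′ to 3′ over the 150 bases before the annotated start. Capitals mark CG dinucleotides, the sites of DNA methylation. The first of 2 Rnf43 windows lies at chr11:87662937-87663086 and that of Lgr4 at chr2:109917497-109917646, both on the plus strand, and neither stretch overlaps a GENCODE exon. The Rnf43 stretch holds 5 CG dinucleotides and the Lgr4 stretch 9.
Rnf43: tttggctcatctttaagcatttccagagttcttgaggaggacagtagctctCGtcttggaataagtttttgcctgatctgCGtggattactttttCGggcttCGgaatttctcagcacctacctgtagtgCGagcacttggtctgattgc
Lgr4: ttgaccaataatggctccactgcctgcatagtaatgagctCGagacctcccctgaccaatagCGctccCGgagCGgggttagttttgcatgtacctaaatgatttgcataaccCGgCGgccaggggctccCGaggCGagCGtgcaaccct

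The binding core of TCF and LEF proteins was looked for as CTTTGAT or CTTTGAA on both strands in RefSeq promoter windows of 300 bases, 250 before and 50 after the start. Windows existed for 38 of the 58 mouse members, 48 in all. A match was found in 3 of the 48 windows (6.25%), against 8.65% of all 32851 windows. The matches were in Dkk1, Wnt11 and Wnt5b, and none was in the windows of Rnf43, Lgr4, Tcf7, Fzd4 or Axin2. Member windows were rich in CG, with a median of 25 such dinucleotides against 7 over all windows. Both matches outside exons are printed with 20 bases on each side and the match in capitals, Wnt11 from chr7:98835041-98835087 (plus strand, match beginning 51 bases before the start) and Wnt5b from chr6:119449431-119449477 (minus strand, 71 bases before the start). A match or its lack describes these letters in this window and nothing about binding.
Wnt11: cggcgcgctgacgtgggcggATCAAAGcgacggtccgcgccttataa
Wnt5b: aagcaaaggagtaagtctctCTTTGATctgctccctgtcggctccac

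Among the receptors of the KPC model, 2 Frizzled genes were positive and 1 negative of 10 tested. Fzd6, a receptor often tied to non-canonical signalling, was at 1.26 ± 0.21 (Wald test adjusted p = 2.39e-07) with a level of 340 in the authors' deposited table, or about 479 against 200. Fzd1 was at 1.09 ± 0.29 (Wald test adjusted p = 0.00468) with a level of 242 in the authors' deposited table. Its adjusted p was 0.032 after recentring and 0.052 with the level trend subtracted. Fzd4, known as the receptor of norrin in blood vessels as well as of WNT, was at -1.06 ± 0.33 (Wald test adjusted p = 0.0192) with a level of 55.7 in the authors' deposited table. Fzd5, a receptor on which RNF43-mutant pancreatic cancer cells are known to rely, was at -0.43 ± 0.20 and missed the threshold (Wald test adjusted p = 0.146) in the authors' deposited table. It was called on both other scalings, with adjusted p-values of 0.022 after recentring and 0.023 after subtraction of the trend. Fzd2 (-0.28 ± 0.33) and Fzd7 (-0.16 ± 0.23) were not called in the authors' deposited table. The co-receptors Lrp5 and Lrp6, listed at 0.23 ± 0.23 and 0.23 ± 0.19 in the authors' deposited table, lay at the shift of well-expressed genes, 0.22.

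Of the 19 ligand genes of KPC, 14 had a level under 16, and the 3 with a level of 64 or more were Wnt7b, Wnt7a and Wnt5a. Wnt7b, a ligand made by many epithelia, was at 0.99 ± 0.20 (Wald test adjusted p = 8.29e-05) with a level of 431 in the authors' deposited table, or about 573 against 288. Its close paralog Wnt7a was listed at -0.76 ± 0.33 (Wald test adjusted p = 0.112, and 0.036 after recentring) with a level of 165 in the authors' deposited table. The non-canonical ligand gene Wnt5a was at -0.54 ± 0.49 and not called in the authors' deposited table. Wnt10a, a ligand of the skin and its appendages, was called at 3.59 ± 1.18 (Wald test adjusted p = 0.0317) with a level of only 8.08 in the authors' deposited table. At so few counts the fold is a fitted value only. The other 14 tested or untested ligands under 64, leaving out Wnt2b at 0.05 ± 0.45, ran from -0.85 (Wnt8b) to -2.61 (Wnt3a) in the authors' deposited table, and none was called.

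Beta-catenin and 2 of its 4 nuclear partners, Tcf7 and Tcf7l2, had a level of 64 or more in KPC. Ctnnb1, which encodes beta-catenin, had the highest level of the members, 13365, and stood at 0.77 ± 0.24 (Wald test adjusted p = 0.0252) in the authors' deposited table. Both other scalings ended this call, with adjusted p-values of 0.12 and 0.17. Apc (0.23 ± 0.20) and Axin1 (-0.42 ± 0.20), scaffolds of the degradation complex, were not called in the authors' deposited table; Axin1 was called on both other scalings, at 0.026 and 0.027. Axin2, the feedback target most used as a reporter of the canonical pathway, had a level of 8.25 and was at -0.82 ± 0.93 (Wald test adjusted p = 0.568) in the authors' deposited table. Its sign turned when the level trend was subtracted, to 0.50. Tcf7, which encodes TCF1, was at 0.97 ± 0.26 (Wald test adjusted p = 0.00531) with a level of 136 in the authors' deposited table. Tcf7l2 at 0.28 ± 0.22, Lef1 at -1.43 ± 0.82 and the repressor gene Tcf7l1 at -2.07 ± 0.79 were not called in the authors' deposited table. The last 2 had levels of 8.81 and 11.6. Tcf7l1 was called on recentring (adjusted p = 0.041) but not after subtraction of the trend (0.66).

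Secreted antagonists and the NKD inhibitors were not called in KPC with fold changes as listed. DKK1, DKK2 and DKK4 proteins block the LRP co-receptors, and SFRP proteins bind WNT itself. All 8 antagonist genes of the KPC table were listed with negative values and levels under 64, from 2.19 for Dkk4 to 62.1 for Dkk2 in the authors' deposited table. Nkd1 and Nkd2 stood at -1.43 ± 0.88 and -1.71 ± 0.69 (Wald test adjusted p of 0.272 and 0.0847) in the authors' deposited table. Nkd2 was called on recentring (adjusted p = 0.048) but not after subtraction of the trend (0.66). The plot of the KPC members by role shows the called positive genes spread over ligands, receptors, the R-spondin module, the beta-catenin core and nuclear factors.

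**Figure D2:**
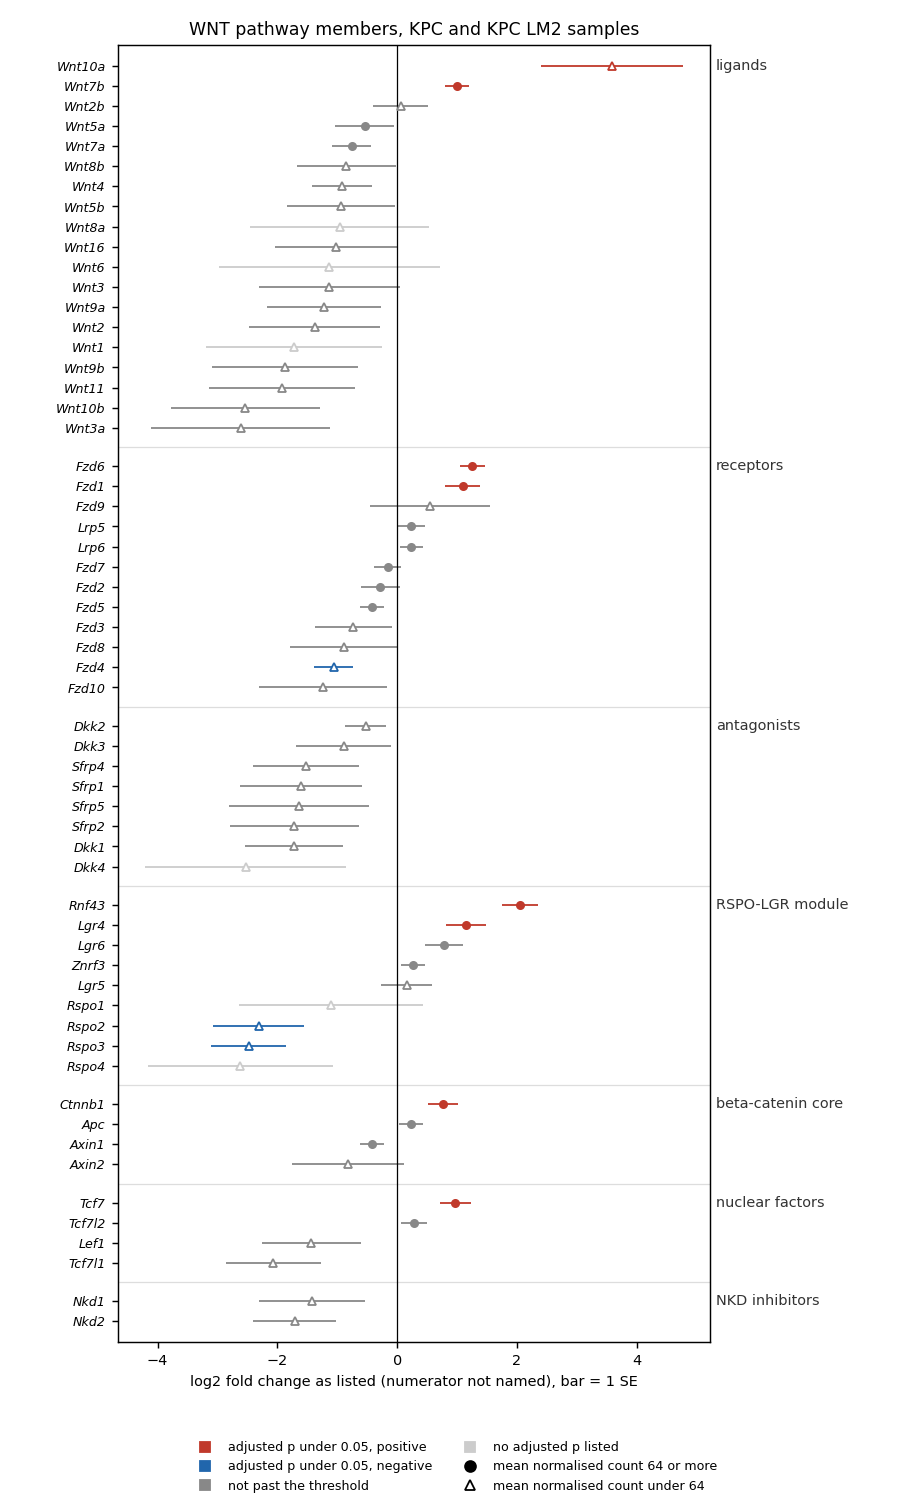
Log2 fold change as listed (horizontal axis, with 1 SE) of the 58 members in the KPC table, ordered by role on the vertical axis. Colour gives the Wald test's call and marker shape the level; the 8 positive calls include 7 genes at a level of 64 or more, while the 3 negative calls are all under 64.

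Levels were compared between mouse members after division by exonic length, from GENCODE annotation of GRCm38 matched by symbol for all 58. Per kilobase (kb) of exon, the co-receptors Lrp6 and Lrp5 led the receptors, with levels of 437 and 344 per kb. Fzd5 (98.9 per kb), Fzd6 (77.5 per kb), Fzd1 (57.6 per kb) and Fzd7 (43.9 per kb) led the Frizzled genes. Fzd4, the negative receptor, was lower at 8.29 per kb. Wnt7b at 93.3 per kb and Wnt7a at 52.1 per kb led the ligands, followed by Wnt5a at 13.1 per kb. Tcf7l2 (162 per kb) stood above Tcf7 (51.8 per kb), and Lef1 and Tcf7l1 were at 2.51 and 3.77 per kb. Lgr4 (127 per kb) was above Lgr6 (43.1 per kb) and Lgr5 (7.02 per kb). Ctnnb1 was at 3689 per kb, higher than 99.7% of the KPC genes with a length, and Axin2 was at 1.94 per kb, at percentile 16.1. No error can be given for these levels, which average both groups, so neighbours in the order are not shown to differ.

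**Figure D3:**
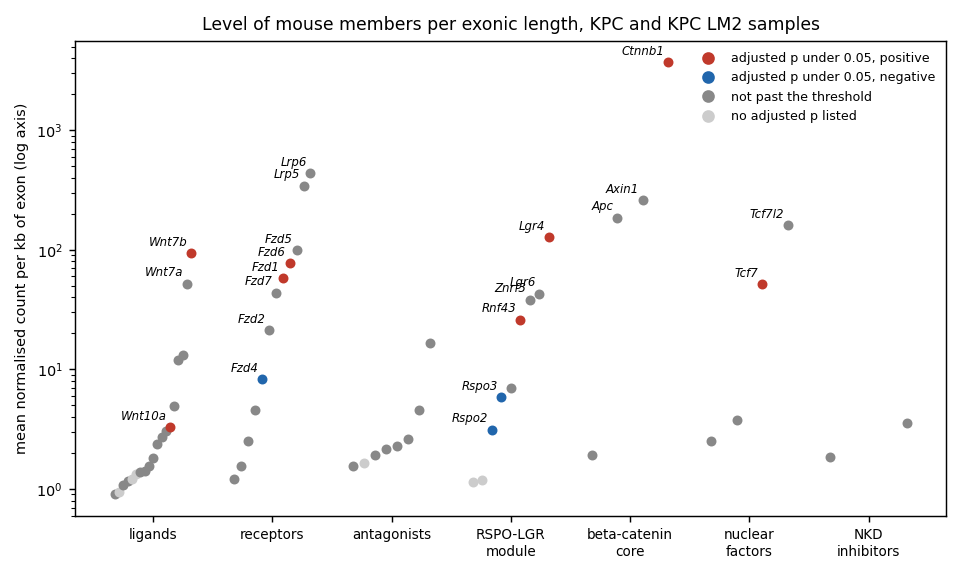
Mean normalised count per kb of exon (vertical axis, log scale) of the 58 mouse members by role, averaged by the authors over the KPC and KPC LM2 samples, with colour for the Wald test's call. Ctnnb1 stands at 3689 per kb, and Wnt7b, Lrp6, Lgr4 and Tcf7l2 lead the ligands, receptors, R-spondin module and nuclear factors.

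Between PANC1 and PANC1 LM3 samples, the R-spondin receptors LGR5 and LGR4, the ligase gene RNF43, 4 Frizzled receptors, 3 of the 4 TCF/LEF factors and the feedback gene AXIN2 were on the negative side. Also negative were the antagonist DKK1, the co-receptor gene LRP5, APC, CTNNB1 and 5 ligands. On the positive side were the antagonists SFRP1 and DKK3, the inhibitor NKD2, the ligands WNT2B, WNT3 and WNT11, LEF1 and AXIN1. Of 45 members 44 had an adjusted p; 8 were called positive, 20 negative, and 16 were not called. The other member, WNT2, had no adjusted p. The share called was 63.6%, in a table where 52.5% of all 17838 tested genes were called (26.0% positive and 26.5% negative). Negative calls made up 45.5% of the tested members and positive calls 18.2%. At a level of 64 or more, 19 of 24 members were called (79.2%, against 69.3% of genes at that level). The median log2 fold change of the tested members was -0.33, against 0.00 (rounded) for all tested genes. Recentring gave 8 positive and 19 negative calls, and subtraction of the level trend 8 and 21.

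The R-spondin module held the 2 most negative members of PANC1. LGR5 was at -5.67 ± 1.08 (Wald test adjusted p = 5.16e-07) with a level of 19.0 in the authors' deposited table, or about 0.73 on the numerator side against 37.3. RNF43 was at -4.32 ± 0.67 (Wald test adjusted p = 4.53e-10) with a level of 23.4 in the authors' deposited table, or about 2.23 against 44.5. Each is therefore close to the floor on one side, and the fold is a fitted value. LGR4, the most abundant of the 3 receptors, was at -1.81 ± 0.07 (Wald test adjusted p = 2.56e-142) with a level of 3373 in the authors' deposited table, or about 1499 against 5246. This was the smallest adjusted p of the members, ranking 111 among all tested genes. ZNRF3 was not called, at 0.05 ± 0.12 (95% interval -0.18 to 0.28) with a level of 250 in the authors' deposited table, and its sign turned with the level trend, to -0.03. LGR6 was at 0.04 ± 1.26 with a level of 1.84 in the authors' deposited table, which leaves its change undetermined.

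All 4 called Frizzled genes of PANC1 were negative. FZD4 was at -2.20 ± 0.14 (Wald test adjusted p = 6.49e-58) with a level of 265 in the authors' deposited table. FZD7, a receptor tied to canonical signalling in stem cells, was at -1.28 ± 0.09 and its relative FZD2 at -1.26 ± 0.12 (Wald test adjusted p of 5.80e-47 and 5.03e-26) in the authors' deposited table. FZD5 was at -0.49 ± 0.12 (Wald test adjusted p = 8.05e-05) in the authors' deposited table. FZD6, with the highest level of the Frizzled genes at 1959, was at 0.05 ± 0.07 (95% interval -0.10 to 0.19), and FZD1 was at -0.08 ± 0.24, neither called in the authors' deposited table. The co-receptor gene LRP5 was negative at -0.38 ± 0.08 (Wald test adjusted p = 1.89e-05), and LRP6 was not called at -0.11 ± 0.07 (Wald test adjusted p = 0.168), in the authors' deposited table.

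Ligands of PANC1 were called in both directions, 3 positive and 5 negative of 13 tested. WNT9A was at -2.11 ± 0.12 (Wald test adjusted p = 3.72e-64) with a level of 310 in the authors' deposited table, or about 117 against 503. WNT10A was at -3.36 ± 0.45 (Wald test adjusted p = 9.35e-13) with a level of 30.8 in the authors' deposited table. WNT6 at -4.10 ± 1.17 and WNT16 at -3.13 ± 0.76 were also called (Wald test adjusted p of 0.00114 and 0.000116), with levels of 6.65 and 10.7 in the authors' deposited table. WNT5B, a non-canonical ligand, was at -0.35 ± 0.11 (Wald test adjusted p = 0.00309) in the authors' deposited table. On the positive side the table held WNT2B and WNT3, which both act through beta-catenin in intestine, and WNT11, a ligand of planar polarity. They were at 0.83 ± 0.19, 0.59 ± 0.15 and 1.47 ± 0.45 (Wald test adjusted p of 3.50e-05, 0.000246 and 0.00297) in the authors' deposited table. WNT7B at -0.01 ± 0.14 (level 178) and WNT5A at 0.43 ± 0.21 were not called in the authors' deposited table, and the sign of WNT7B turned on recentring, to 0.03.

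Nuclear factors and the beta-catenin core of PANC1 were called in 8 of 8 cases, in 2 directions, in a table where 52.5% of all genes were called. TCF7 was at -2.23 ± 0.19 (Wald test adjusted p = 1.53e-29) with a level of 125 in the authors' deposited table, or about 43.8 against 205. TCF7L1 at -1.54 ± 0.36 and TCF7L2 at -0.81 ± 0.13 had the same sign (Wald test adjusted p of 4.68e-05 and 1.17e-09) in the authors' deposited table. LEF1 was called on the other side at 2.31 ± 0.95 (Wald test adjusted p = 0.0291), with a level of only 4.49 in the authors' deposited table. AXIN2 was at -1.52 ± 0.33 (Wald test adjusted p = 1.08e-05) with a level of 34.2 in the authors' deposited table, or about 17.6 against 50.7. The core genes moved little: CTNNB1 was at -0.17 ± 0.06 (Wald test adjusted p = 0.0152), APC at -0.27 ± 0.07 and AXIN1 at 0.31 ± 0.09 in the authors' deposited table. The call of CTNNB1 was lost on recentring (adjusted p = 0.055) and after subtraction of the trend (0.50).

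Of the 5 antagonists of PANC1, 2 were called positive, 1 negative and 2 were not called. SFRP1, which sequesters WNT ligands, was at 1.47 ± 0.10 (Wald test adjusted p = 4.45e-48) with a level of 432 in the authors' deposited table, or about 634 against 229. DKK3, an atypical member of its family, was at 0.69 ± 0.06 (Wald test adjusted p = 4.26e-28) with a level of 2965 in the authors' deposited table. DKK1, itself a known target of beta-catenin, had the highest level of the members, 10274, and was at -0.31 ± 0.05 (Wald test adjusted p = 2.46e-09) in the authors' deposited table. SFRP4 at -0.97 ± 0.81 and SFRP5 at -0.80 ± 0.98, with levels of 4.88 and 3.64, were not called in the authors' deposited table. NKD2, the feedback inhibitor of Dishevelled, was at 1.20 ± 0.19 (Wald test adjusted p = 1.57e-09) in the authors' deposited table. The feedback genes of PANC1 thus did not share a sign, with AXIN2 and RNF43 negative, NKD2 positive and ZNRF3 not called.

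**Figure D4:**
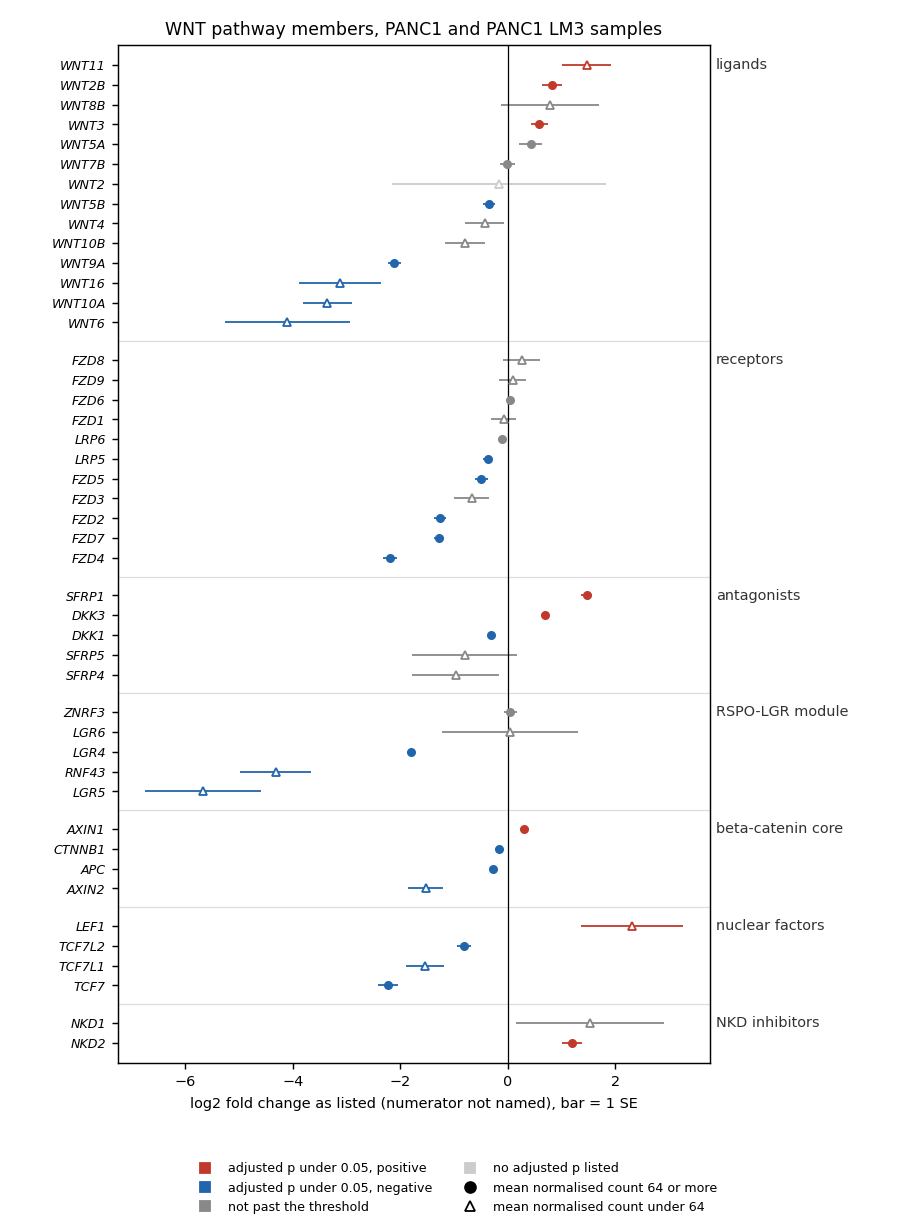
Log2 fold change as listed (horizontal axis, with 1 SE) of the 45 members in the PANC1 table, ordered by role on the vertical axis. Colour gives the Wald test's call and marker shape the level; LGR5 at -5.67 and RNF43 at -4.32 lie farthest to the left, and SFRP1 and NKD2 are on the right.

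Epithelial marker genes were called in both directions in PANC1. Of 6 such markers 4 were negative, KRT8 at -4.35 ± 0.06, CDH1 at -3.92 ± 0.10, KRT19 at -3.79 ± 0.05 and KRT18 at -3.35 ± 0.05 in the authors' deposited table. EPCAM was on the other side at 0.97 ± 0.10, and KRT7 was not called, in the authors' deposited table. The 6 summed to about 13996 on the numerator side and 192883 on the other. The genes listed for PANC1 carry human symbols, so tumour cells of this human line can also express the markers named next. Whether host cells added to their values was not tested. Of the endothelial list, 5 of 10 genes had a row and summed to a level of 28.0, with CDH5 called at -4.09 ± 0.95 in the authors' deposited table. Stellate and fibroblast markers split, with 4 of 7 listed positive and 3 negative. COL3A1 at 1.05 ± 0.11 and TAGLN at 1.27 ± 0.25 were called in the authors' deposited table. The 7 summed to about 882 on the numerator side and 579 on the other, of which COL3A1 alone made about 547 and 264. Of 5 listed leukocyte markers CD68 was called, at 1.91 ± 0.07 with a level of 1103 in the authors' deposited table. The defining hepatocyte genes ALB, APOA1 and TTR had no row in this table, and 3 of the 6 listed hepatocyte markers, which tumour cells can also express, were negative. The part of these markers in the values of the WNT genes was not tested. In KPC the epithelial markers split differently, with Krt7 positive at 1.18 ± 0.18, Epcam negative at -1.14 ± 0.28 and 4 of 6 not called in the authors' deposited table.

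Across both models, 6 members were called in each: RNF43, LGR4, TCF7, WNT10A, CTNNB1 and FZD4. They made up 54.5% of the members called in KPC and 21.4% of those called in PANC1, or 6 of the 9 KPC calls that were also tested in PANC1. With 52.5% of all genes and 63.6% of members called in PANC1, nothing is read from this overlap. The first 5 of them shared a sign within each table, all positive in KPC and all negative in PANC1. FZD4 stood apart from them in KPC, where it was negative, and with them in PANC1. This arrangement within each table does not depend on which group is the numerator, whereas the sign of 1 model against the other does. CTNNB1 and LGR4 are in this set only with fold changes as listed, since both other scalings ended the KPC call of each and also the PANC1 call of CTNNB1.

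Size of change, without sign, was compared between the models for the 43 members tested in both, and a difference was called only if it held whichever way the tables were oriented. This test called 7 members, against 9.69% of all 12777 symbols tested in both tables. RNF43 changed by more in PANC1, by 4.32 against 2.05 on the log2 scale (difference 2.27 ± 0.73, adjusted p = 0.0248 by the z test of the difference). LGR5 (5.67 against 0.16), TCF7 (2.23 against 0.97), FZD7 (1.28 against 0.16) and FZD4 (2.20 against 1.06) were also larger in PANC1. FZD6 (0.05 against 1.26) and WNT7B (0.01 against 0.99) were larger in KPC. For LGR4 the sizes were 1.81 and 1.14, a difference of 0.66 ± 0.34 that missed the threshold (z test adjusted p = 0.268). AXIN2, called in PANC1 alone, had sizes of 1.52 and 0.82 with a difference of 0.71 ± 0.99 (z test adjusted p = 0.815), so its models were not shown to differ.

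**Figure D5:**
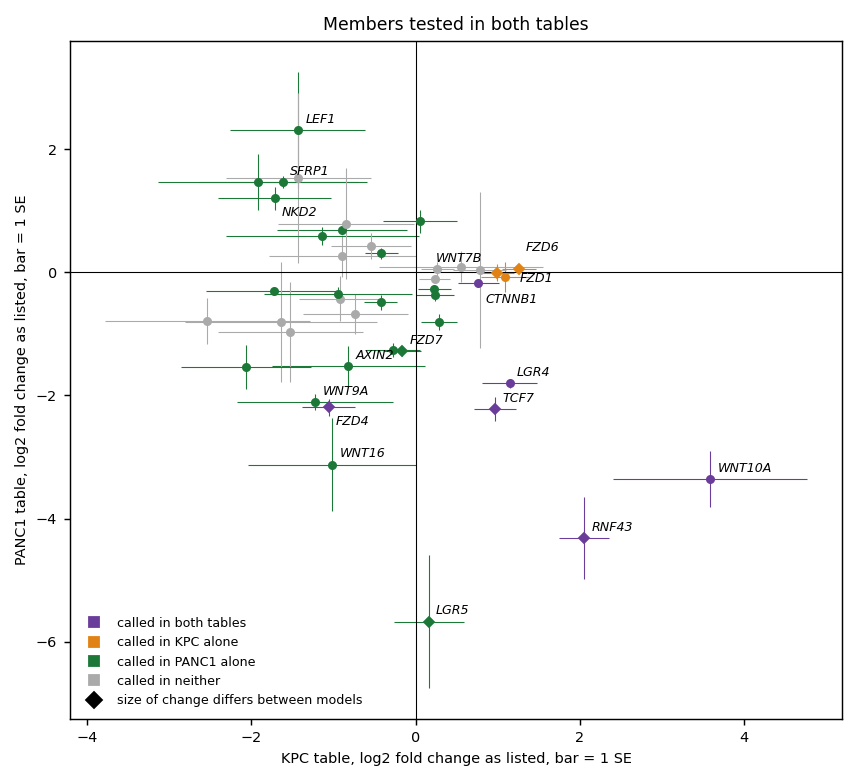
Log2 fold change as listed in the KPC table (horizontal axis) against that in the PANC1 table (vertical axis) for the 43 members tested in both, with 1 SE in each direction; turning the numerator of either table would mirror the plot. RNF43, WNT10A, LGR4 and TCF7 lie together at the lower right, FZD4 lies at the lower left, and diamonds mark the 7 members whose size of change differed.

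Other genes of the pathway, 75 found of a list of secretion factors, co-receptors, Dishevelled, kinases, polarity proteins and nuclear cofactors, were also counted. In KPC 4 of 71 tested were positive and 4 negative (11.3%, against 10.4% of all genes). The polarity cadherin gene Celsr1 was at 1.73 ± 0.27 and Wls, the carrier that brings WNT proteins to the cell surface, at 1.06 ± 0.19 (Wald test adjusted p of 1.74e-08 and 1.90e-06) in the authors' deposited table. Tle3, a corepressor of TCF, was at 0.58 ± 0.19 and the polarity gene Vangl1 at 0.59 ± 0.20 in the authors' deposited table, and both calls were lost after subtraction of the level trend. On the negative side were the WNT co-receptors Ptk7 (-1.29 ± 0.28) and Ror2 (-3.69 ± 0.81), Lrp4 (-1.55 ± 0.55) and Dact2 (-3.74 ± 1.05) in the authors' deposited table, the last 3 with levels under 64. Lrp4 and Dact2 were not called after subtraction of the level trend, and recentring turned the split of the list to 2 positive and 11 negative.

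In PANC1, 23 of 67 tested genes of that list were positive and 23 negative (68.7%, against 52.5% of all genes). At a level of 64 or more, 41 of 56 were called (73.2%, against 69.3% of all genes at that level). The co-receptor gene PTK7 was at -2.22 ± 0.05 with a level of 4706 and an adjusted p listed as 0 in the authors' deposited table. The polarity genes PRICKLE1 (-2.33 ± 0.13) and VANGL1 (-1.31 ± 0.08) and the corepressor gene TLE3 (-1.21 ± 0.08) were negative as well in the authors' deposited table. CXXC5 (-1.32 ± 0.09), GPC6 (-1.57 ± 0.17), CREBBP (-0.66 ± 0.09) and ROR2 (-1.47 ± 0.21) were the others of the 8 smallest adjusted p in that direction in the authors' deposited table. Positive genes included KREMEN1, a receptor of DKK1, at 1.97 ± 0.20 and the polarity cadherin gene CELSR3 at 0.83 ± 0.09 in the authors' deposited table. NOTUM, a secreted enzyme that inactivates WNT proteins and is itself a known target, was at 2.21 ± 0.31 with a level of 45.4 in the authors' deposited table. CAPRIN2 (1.26 ± 0.06), CSNK1A1 (0.58 ± 0.05), DACT2 (1.47 ± 0.15), WLS (0.70 ± 0.08) and TLE1 (0.89 ± 0.11) were also positive in the authors' deposited table.

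Known targets of beta-catenin outside the members were called in both directions in each model. In KPC 4 of 25 tested were positive and 4 negative (32.0%, against 10.4% of all genes). Twist1 was at 2.23 ± 0.39 and the adhesion receptor gene Cd44 at 0.76 ± 0.24, against Ephb2 at -2.38 ± 0.61 and Tnfrsf19 at -2.53 ± 0.71, in the authors' deposited table. Of the 8, only Twist1 and Ephb2 stayed called after the level trend was subtracted. Myc, at -0.63 ± 0.27 with a level of 1187, was not called in the authors' deposited table (Wald test adjusted p = 0.106). It was called after recentring (0.024) and after subtraction of the trend (0.028). In PANC1 9 of 26 were positive and 10 negative (73.1%, against 52.5% of all genes). The proto-oncogene MYC was at 1.46 ± 0.06, the cyclin gene CCND1 at 1.12 ± 0.05 and SOX9 at 0.70 ± 0.07 in the authors' deposited table. BAMBI, a decoy receptor, was at -7.23 ± 1.21, EPHB3 at -3.61 ± 0.39 and L1CAM at -1.63 ± 0.06 in the authors' deposited table. For BAMBI this equals about 0.40 against 59.2, so one side is at the floor and the fold is a fitted value. Thus MYC and CCND1 stood on the opposite side from AXIN2, LGR5 and RNF43 in PANC1. CD44 was at -0.90 ± 0.05 and EPHB2 at 0.99 ± 0.07 in the authors' deposited table.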

How the data were processed

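RNA from a total RNA kit was sequenced with a TruSeq kit, per the labels' protocols. Per the submitters' processing notes DESeq2 1.24, MultiQC 1.9, featureCounts 2.0.0 and STAR 2.7.6a were used, with builds hg19 and mm39; settings, annotation and model design are not given in the sources used here. The authors deposited 1 comparison table per model: a mean normalised count (a signal, read as counts over size factors, not corrected for length), log2 fold changes with SE, a Wald score, p-values, adjusted p-values and a signed negative log10 p that was not used. The score equalled the log2 fold change over its SE, and the adjusted p a Benjamini-Hochberg adjustment over genes that have one (20050 in KPC, 17838 in PANC1). Per-sample columns not assigned numbered 0. Without counts per library no count test was made, so calls are the authors' own, at an adjusted p under 0.05 over the whole table.

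Members and lists were chosen with earlier results of these data known. Members called in either table are named with their values in both where these bear on the call, those not called at 64 or more as contrasts, and up to 8 genes per list and direction by adjusted p, of which the text shows a part. Promoters are shown for 2 members called in both tables; those of Wnt11 and Wnt5b were added after the motif search was seen. Sizes of change were compared by a z test on the difference over its combined SE in both orientations, taking the larger p, with Benjamini-Hochberg adjustment over all shared symbols. Alternatives were an adjusted p under 0.01, adjustment over every gene with a p, a fold change beyond 1 on the log2 scale, genes at 64 or more, recentring on them, subtraction of a running median over 501 genes ordered by level, and a t distribution with 4 degrees of freedom. Steps were tested on simulated data. P-values set the difference between groups against an SE estimated by the authors' model from 3 replicates a group, whose source beyond "biological" is not stated. Scripts ran on matplotlib 3.10.9, scipy 1.17.1, numpy 2.4.6, Python 3.11.15 and pandas 2.3.3.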

Additional observations from a re-analysis of the deposited data

Results flagged for a closer look

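The size of the log2 change differed between the models for 7 members by the z test that holds in both orientations of the tables. The size in PANC1 minus the size in KPC was 5.51 for LGR5, 2.27 for RNF43, 1.26 for TCF7, 1.14 for FZD4 and 1.12 for FZD7. It was -1.21 for FZD6 and -0.99 for WNT7B. The models differ in species, line, number of selection generations and precision, and these cannot be told apart.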

How the results depend on the processing

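No paired analysis was possible because the tables hold no value per library; for the same reason replicates left out in turn, a replicate block, another normalization and a filter on low counts were not run. Of 11 KPC members called, 6 were called at an adjusted p under 0.01, 7 among genes at 64 or more and 0 by a t distribution with 4 degrees of freedom, where 19 had an unadjusted Wald p under 0.05; recentring gave 14 and the other settings 8 to 11. Other pathway genes of KPC went from 8 to 5 at 0.01, 13 on recentring, 5 after subtraction of the level trend and 0 by the t distribution (23 with an unadjusted Wald p under 0.05). Of 28 PANC1 members, 17 had an absolute log2 fold change over 1, as had 16 of the 46 other pathway genes; other settings gave 19 to 29 and 33 to 46. The count of 7 members that differed in size stayed between 5 and 8. Signs turned for genes that were not called: after subtraction of the trend in KPC, Apc (-0.0143), Lrp5 (-0.0221), Axin2 (0.50), Wnt3 (0.43), Wnt16 (0.44), Wnt5b (0.37), Dkk3 (0.45), Wnt9a (0.24), Fzd8 (0.51), Wnt8b (0.46), Fzd10 (0.34), Wnt2 (0.06) and Sfrp5 (0.02), and in PANC1 ZNRF3 (-0.0272), FZD9 (-0.03) and LGR6 (-0.15); on recentring, Lgr5 (-0.0605) and Wnt2b (-0.16) in KPC and WNT7B (0.0258) in PANC1. Low level limits the KPC values: the median SE of members under 16 was 1.04, against 0.23 at 64 or more.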

Other observations

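Some WNT genes lie next to each other in the genome, and 4 pairs of members were neighbours among protein-coding genes of RefSeq on GRCm38. WNT6 and WNT10A, 1 such pair, were both negative in PANC1, at -4.10 ± 1.17 and -3.36 ± 0.45 in the authors' deposited table. In KPC Wnt10a was positive at 3.59 ± 1.18, and Wnt6 had no adjusted p and a level of 1.94 in the authors' deposited table. The other pairs, Wnt3a with Wnt9a, Wnt9b with Wnt3 and Wnt10b with Wnt1, had no called gene in KPC and only 1 listed gene each in PANC1. Of those, WNT9A was at -2.11 ± 0.12 and WNT3 at 0.59 ± 0.15 in the authors' deposited table.

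Several cell-surface genes held the same positions relative to each other in both tables, whichever group is the numerator. WLS and CELSR1 were on one side in each model, and PTK7, ROR2, LRP4 and FZD4 on the other. Of the known targets, PLAUR also held its position with WLS, and L1CAM with PTK7. Other called cell-surface genes did not hold their position, among them RNF43, CD44, EPHB2 and TNFRSF19. RNF43 and CD44 were at 2.05 ± 0.30 and 0.76 ± 0.24 in KPC, but at -4.32 ± 0.67 and -0.90 ± 0.05 in PANC1. EPHB2 and TNFRSF19 were at -2.38 ± 0.61 and -2.53 ± 0.71 in KPC, but at 0.99 ± 0.07 and 0.99 ± 0.23 in PANC1. VANGL1 and LGR4 were at 0.59 ± 0.20 and 1.14 ± 0.34 in KPC, but at -1.31 ± 0.08 and -1.81 ± 0.07 in PANC1. The KPC calls of Lrp4, Vangl1, Lgr4, Cd44, Tnfrsf19, Plaur and L1cam were lost after subtraction of the level trend. Celsr1 was at 1.73 ± 0.27 in KPC and CELSR1 at 0.62 ± 0.09 in PANC1, against Lrp4 at -1.55 ± 0.55 and LRP4 at -0.79 ± 0.14, in the authors' deposited tables. These genes were singled out after their values were seen, and the overlap was not tested.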
